A study of Mus musculus with 298 samples.

Results

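Potassium channel genes were described in individual cells of mouse thoracic sympathetic ganglia, part of the chain of autonomic neurons that drives the heart, vessels and other viscera. The members were all genes of the deposited table whose name starts with Kcn, 79 of 16892. The rule used the name alone, so it took in auxiliary subunits, the regulator Kcnrg and the non-coding RNA Kcnq1ot1 beside the pore-forming channels. The cells came from mice carrying Wnt1-Cre, which is active in the neural crest, and the R26R-Tomato reporter. All groups share these alleles, and no group was treated. The labels name 16 cholinergic cells (8 Ach1 and 8 Ach2), 4 Glutamatergic cells and 193 noradrenergic cells (10 Noradrenergic1, 39 Noradrenergic2, 103 Noradrenergic3, 18 Noradrenergic4 and 23 Noradrenergic5). A further 85 cells are Unclassified and entered no comparison. How the identities were assigned is not given in the sources used here, so where they were drawn from these transcriptomes, p-values between identities are not independent evidence of a difference. The labels name no animals, so a replicate was a collection, meaning all cells of the same sex and age. There were 10 collections, from males at postnatal day 29, 30 and 38 (P29, P30, P38) and from females at P11, P16, P20, P30, P31, P33 and P34. P-values between identities measure the spread among sums by identity and collection that is left after differences shared by a collection are removed. Only the test of sex measures the spread between collections. A collection may hold 1 animal or several, and a small identity is often a single cell in a collection.

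Potassium channels let potassium leave the cell and so set the resting potential, end the action potential and space out firing. Voltage-gated channels are built from Kcna, Kcnb, Kcnc and Kcnd subunits, with Kcnab and Kcnip proteins as partners inside the cell and Kcng, Kcns, Kcnv and Kcne subunits as modifiers. Kcnh genes encode the ether-a-go-go channels, and Kcnj genes the inward rectifiers. Kcnk genes encode the tandem-pore leak channels, which hold the resting potential. Kcnma1 with its beta subunits forms the large-conductance calcium-activated channel, Kcnn genes the small-conductance ones, and Kcnt1 a channel opened by sodium. Kcnq channels carry the M current, a slow brake on firing that was first described in sympathetic neurons and is shut by muscarinic and peptide receptors.

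The lowest total of a cell was 7225 counts, the median 33099 and the highest 81589. Median counts were 35670 in Ach1 cells, 28121 in Ach2 cells, 25756 in Glutamatergic cells and between 27729 and 43245 in the 5 noradrenergic identities. The 5 cells labelled P16 female held 0 counts of Xist and 28 counts of Y-linked genes, so their sex label is in doubt, and they entered no test of sex. The labels' identities held their markers. The 4 cholinergic markers, which include Chat, summed to a median of 59.0 counts per 10000 in cholinergic cells and 0 in noradrenergic cells, and the 7 glutamatergic and sensory markers to 190 in Glutamatergic cells and 11.1 in noradrenergic cells. The 5 noradrenergic markers summed to 16.9 in cholinergic cells, 7.15 in Glutamatergic cells and 113 in noradrenergic cells. The single P33 female Glutamatergic cell held 80.4 of the noradrenergic markers, against 4.90 in the P29 male pair and 5.87 in the P31 female cell. Transcripts of satellite glia and Schwann cells differed between the groups as well. The 14 genes of that list summed to a median of 29.6 counts per 10000 in cholinergic cells (16.5 to 63.2 over collections), 27.1 in Glutamatergic cells (14.5 to 50.1) and 6.17 in noradrenergic cells (2.21 to 15.3), and all 14 had a count in cholinergic and noradrenergic cells, while Erbb3 and Ncmap were at 0 in Glutamatergic cells. The 15 immediate-early and stress genes summed to medians of 23.8, 46.3 and 11.2 in the same order.

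Most potassium channel genes were sparse. Together the 79 members gave 12390 counts, 0.124% of all counts. A count was seen for 75 members, while Kcne1, Kcnmb2, Kcnk6 and Kcnj11 had 0 counts in any cell, and 23 members had 1 to 10 counts. Only 12 members were detected in at least 149 of the 298 cells, and 40 were detected in fewer than 10% of cells. They included Kcnc4 (275 cells), Kcnq1ot1 (271), Kcnip4 (260), Kcnma1 (253), Kcnab2 (238), Kcnmb4 (227), Kcnq5 (222), Kcnh1 (202), Kcnt1 (190) and Kcna6 (189). In all 8 named identities a count was found for 24 members, while 8 members had counts in a single named identity and 5 in no named identity. Summed over all members, the median level in a cell was 12.3 counts per 10000 in Ach1 cells, 13.4 in Ach2 cells, 16.4 in Glutamatergic cells and between 10.6 and 14.2 in the noradrenergic identities. After each cell was thinned to 15000 counts, which left out 20 shallower cells, a cell held a median of 10 to 15.5 members, against 14 to 21 before thinning.

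**Figure D1:**
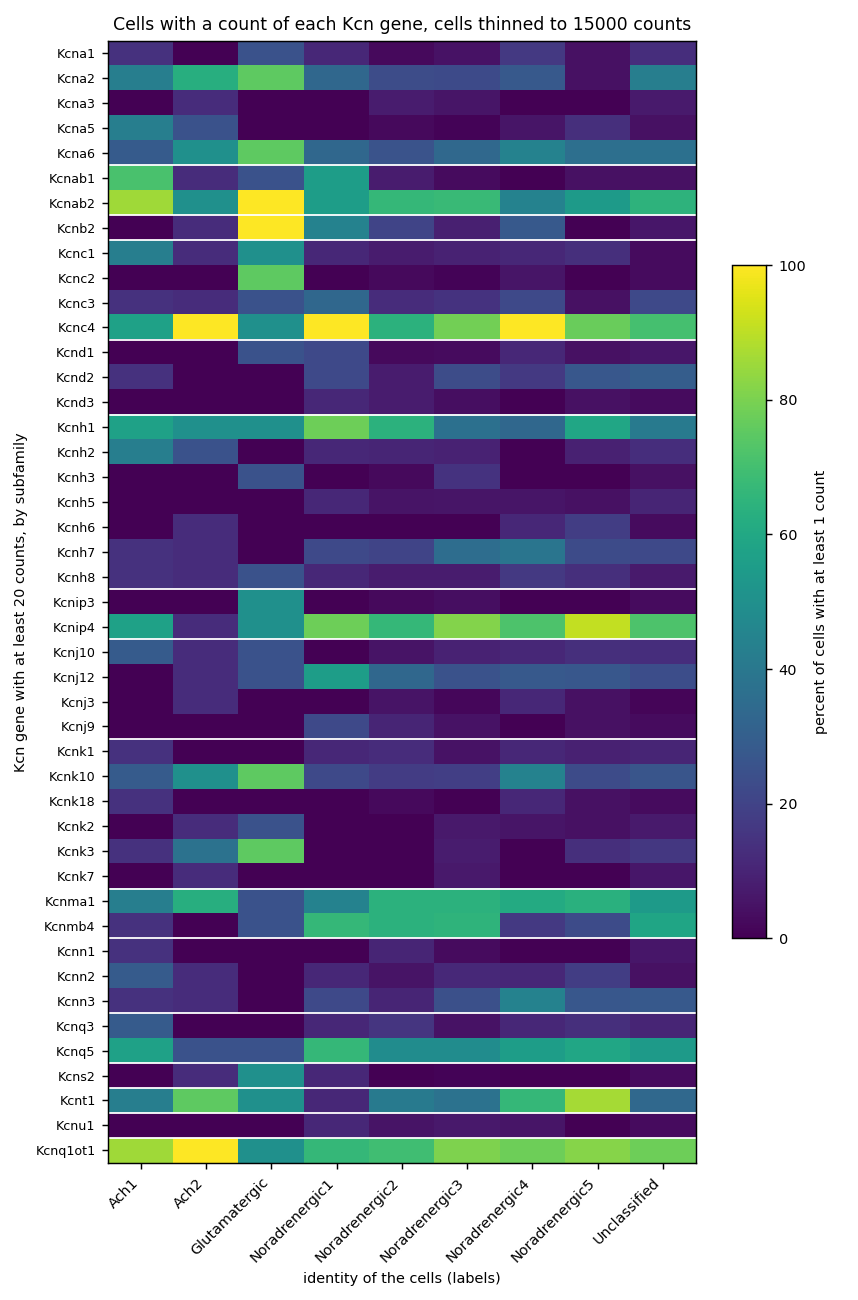
Share of cells with at least 1 count of 45 Kcn genes that had 20 counts or more, by labelled identity, after each cell was thinned to 15000 counts; rows are genes grouped by subfamily, columns are identities, and colour gives the percent of cells. Kcnc4, Kcnip4 and Kcnq1ot1 are seen in many cells of most identities, while Kcnc2 and Kcnip3 stand out in the column of 4 Glutamatergic cells.

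By subfamily, counts were spread over many channel types, with 12.3% of the members' counts from 5 Kcnq genes, 11.4% from 4 Kcnm genes, 10.7% from 4 Kcnc genes and 9.24% from 4 Kcnip genes. Counts were not divided by transcript length, so these shares do not rank channels by abundance. The share of a subfamily's counts that its leading gene gave varied. Kcnc4, which encodes a fast A-type channel, had 1130 of the 1329 Kcnc counts, and Kcna6 had 329 of the 750 Kcna counts. Kcnab2, an intracellular beta subunit of Kcna channels, had 757 of the 845 Kcnab counts. Kcnip4, a calcium-binding partner of Kcnd channels, had 1099 of the 1145 Kcnip counts, although Kcnd2, the most counted Kcnd gene, had 186 counts. Kcnh1 had 430 of 933 Kcnh counts, Kcnj12 had 227 of 391 Kcnj counts, Kcnk10 had 210 of 486 Kcnk counts and Kcnn3 had 182 of 300 Kcnn counts. The modifier subunits were close to the detection floor. Kcns2 (21 counts), Kcng4 (14), Kcnv1 (5) and Kcne4 (4) led their subfamilies. Kcnu1, a large-conductance channel known from sperm, had 26 counts, and Kcnt1 gave 473 of the 478 Kcnt counts.

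Among the M-current subunits, Kcnq5 averaged 0.455 ± 0.184 counts per 10000 in cholinergic cells (SD, n = 7 collections), 0.228 ± 0.246 in Glutamatergic cells (n = 3) and 0.695 ± 0.293 in noradrenergic cells (n = 10), and was at 1.12 ± 0.223 in Noradrenergic1 (n = 5). Kcnq3 was sparse, with 0.0372 ± 0.0662 in cholinergic cells, 0 in the 4 Glutamatergic cells and 0.0616 ± 0.0655 in noradrenergic cells. Neither differed between transmitter groups at an adjusted p of 0.05 (edgeR quasi-likelihood test over 11555 genes, p adjusted by Benjamini-Hochberg). For cholinergic against noradrenergic cells the fitted log2 fold changes were -0.47 for Kcnq3 (adjusted p = 0.887) and -0.98 for Kcnq5 (adjusted p = 0.104). The non-coding Kcnq1ot1 was at 11.5 counts per 10000 in a single P30 male Ach1 cell, against 0.295 to 2.14 in the other 6 cholinergic collections.

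Cholinergic cells, which in sympathetic ganglia are known to include the neurons of sweat glands, were set against the 193 noradrenergic cells. Of the 79 members, 45 had at least 20 counts and a count in at least 3 libraries and were tested, 4 rose in cholinergic cells, 2 fell, and 39 did not pass. Those that passed the filter are not all members, since 34 were too sparse. Of all 11555 genes tested, 4.57% were called in either direction, 2.17% higher and 2.40% lower, against 13.3% of the 45 members. The median log2 fold change was -0.13 over the tested members and -0.20 over all genes tested. With the 6 members at 0 counts in cholinergic cells placed at their limit (3 counts over the group), the members' median was 0.15. None of the 6 limits lay below no change, so this value shows no rise. The median of all genes was not recomputed in this way.

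Leak channels of the Kcnk subfamily made up 2 of the 4 members that rose. Kcnk3 (chromosome 5, 30588170 to 30625271, plus strand, GRCm38), the acid-sensitive leak channel TASK-1, was at 0.146, 0.811, 0.838, 2.87, 0, 0 and 0.314 counts per 10000 in cholinergic cells of P16 female, P29 male, P30 female, P30 male, P31 female, P33 female and P38 male. In noradrenergic cells it lay between 0 and 0.103 over 10 collections, with a median of 0.0141. Of the 7 cholinergic collections 5 were above every noradrenergic collection and the 2 others were at 0, so the groups overlapped there. The means were 0.712 ± 1.02 in cholinergic and 0.0344 ± 0.0413 in noradrenergic cells, and 8 of 16 cholinergic against 38 of 193 noradrenergic cells held a count (4 of 15 against 11 of 191 after thinning). The log2 fold change was 2.69 ± 0.54 (SE from the edgeR test, adjusted p = 3.28e-05). Without the P30 female collection it was 2.11 (adjusted p = 0.243), and in libraries of at least 2 cells it was 0.03 (adjusted p = 1). Kcnk2 (chromosome 1, 189207930 to 189402273, minus strand), the stretch- and lipid-gated leak channel TREK-1, was at 0.146, 0.162, 0.0931, 0, 0.0982, 0 and 0.209 in the cholinergic collections in the same order, against 0 to 0.077 in noradrenergic cells. It thus stood above the noradrenergic range in 5 of 7 collections, on 7 counts in 6 of 16 cells against 17 counts in 15 of 193 cells. Its log2 fold change was 2.34 ± 0.75 (edgeR, adjusted p = 0.0441), and the call was lost without any of 5 collections, with adjusted p of 0.0507 to 0.28.

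The other members that rose belong to the Kcna channel complex. Kcna5 (chromosome 6, 126532551 to 126535412, minus strand), a delayed rectifier, was at 0.437, 0.487, 0.651, 0, 0.196, 0 and 0 counts per 10000 in the 7 cholinergic collections, in the order given for Kcnk3, and between 0 and 0.22 in the noradrenergic ones. It was higher in cholinergic cells of the P16 female, P29 male and P30 female collections than in any noradrenergic collection, while 3 cholinergic collections held 0 counts. The means were 0.253 ± 0.272 and 0.0469 ± 0.0658, and the log2 fold change was 2.75 ± 0.65 (edgeR, adjusted p = 0.000856). Kcnab1 (chromosome 3, 65109384 to 65378223, plus strand), a beta subunit that speeds inactivation of Kcna channels, was at 0.437, 0.487, 0.0931, 0, 0.393, 0.908 and 0.523 in cholinergic cells. In noradrenergic cells its median was 0.0574, but 2 cells of P30 male reached 1.55 and the P20 female cell 0.439, so the ranges overlapped. Its log2 fold change was 2.27 ± 0.52 (edgeR, adjusted p = 0.000675), with counts in 10 of 16 cholinergic against 30 of 193 noradrenergic cells. Without the P29 male collection both calls were lost, with log2 fold changes of 2.25 for Kcna5 (adjusted p = 0.233) and 1.87 for Kcnab1 (adjusted p = 0.173). The sequence of Kcnab1 overlaps a gene on the other strand, and whether counting used the strand is not given in the sources used here, so its counts may be shared. The same holds for Kcnk3 and Kcnip4 and for 13 members in all.

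Both members that fell are partners of channels, not pores. Kcnip4 (chromosome 5, 48389502 to 49524907, minus strand) was at 0.146, 0.325, 0.0931, 0, 0.295, 0.908 and 2.09 counts per 10000 in the cholinergic collections, against 0.663 to 2.64 in the 10 noradrenergic ones. Of the 7 cholinergic collections 5 lay under every noradrenergic collection, and the P38 male value of 2.09 rested on a single Ach1 cell with 20 of the 32 cholinergic counts. The means were 0.551 ± 0.741 and 1.17 ± 0.567, 8 of 16 cholinergic and 183 of 193 noradrenergic cells held a count, and the log2 fold change was -2.09 ± 0.42 (edgeR, adjusted p = 3.61e-05). Kcnmb4 (chromosome 10, 116417861 to 116473878, minus strand), the neuronal beta subunit that slows the large-conductance calcium-activated channel, was at 0, 0.0811, 0.0931, 0.718, 0.393, 0 and 0 in cholinergic cells. Noradrenergic cells had a median of 0.621 and a highest value of 1.54. Kcnmb4 was not detected in the 8 Ach2 cells, which allows a share of up to 37.5% of such cells with a count, and it was found in 161 of 193 noradrenergic cells. Its log2 fold change was -3.49 ± 0.82 (edgeR, adjusted p = 0.00095). The fit weights Ach1 and Ach2 equally, and with 0 counts in Ach2 the size of this fold change depends on the fit. It need not match the ratio of the levels. After thinning neither call held, with log2 fold changes of -1.73 for Kcnip4 (adjusted p = 0.0708) and -2.81 for Kcnmb4 (adjusted p = 0.123). The pore that Kcnmb4 joins, Kcnma1, averaged 0.66 ± 0.444 in cholinergic and 0.893 ± 0.225 in noradrenergic cells and was not called (log2 fold change -0.35, adjusted p = 0.688).

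**Figure D2:**
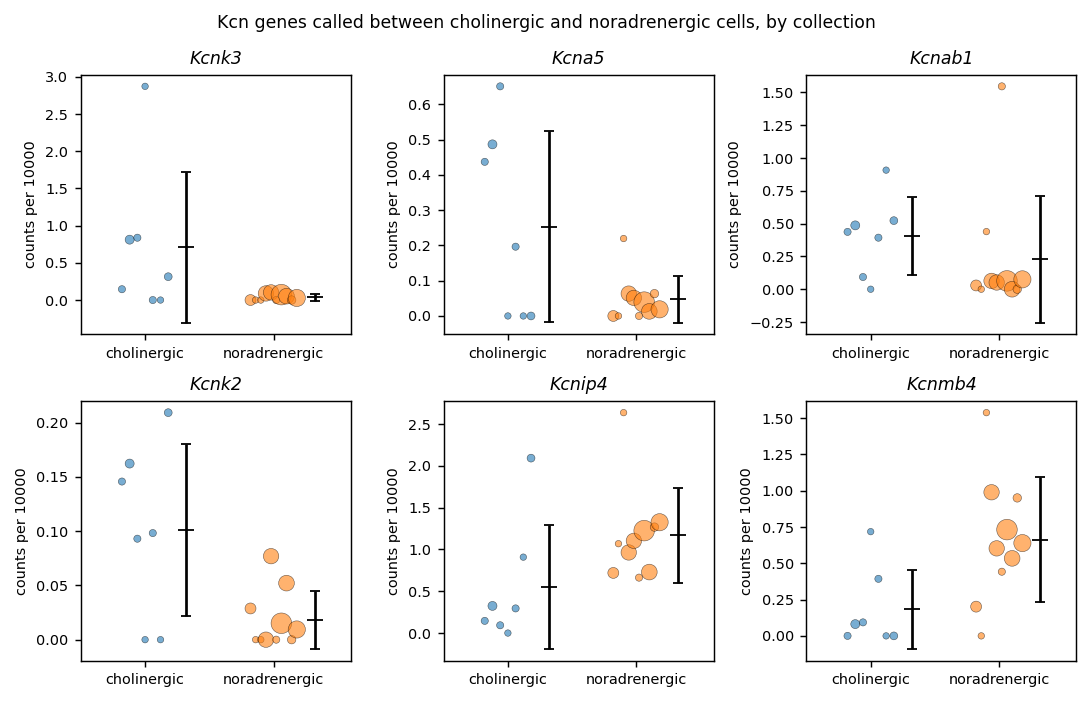
Levels of the 6 Kcn genes called between cholinergic and noradrenergic cells, in counts per 10000; each point is a collection with its area growing with the number of cells, and the bar is the mean with SD over 7 cholinergic and 10 noradrenergic collections. Kcnk3, Kcna5 and Kcnk2 have cholinergic collections above the noradrenergic ones together with some at 0, and most cholinergic points of Kcnip4 and Kcnmb4 lie low.

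Glial transcripts were higher in cholinergic cells, as given above, and so were stress genes. With the glial list level added to the model, a choice made after seeing the data, 4 of the 6 calls remained. They were Kcnab1, Kcna5, Kcnip4 and Kcnmb4, while Kcnk3 had a log2 fold change of 2.0 (adjusted p = 0.0598) and Kcnk2 of 2.03 (adjusted p = 0.152). The P30 male Ach1 cell, with the highest Kcnk3 level, had the highest glial list sum of the cholinergic libraries, 63.2, followed by the P29 male Ach1 cell at 62.1. Whether glial transcripts account for the Kcnk3 level was not tested. The part of the stress genes in these results was not tested. Other members reached an unadjusted p under 0.05 without a call. Kcnj12, an inward rectifier, was at 0.0622 ± 0.0831 in cholinergic and 0.271 ± 0.225 in noradrenergic cells (log2 fold change -1.96, adjusted p = 0.0619). Kcnh2, the erg channel, was at 0.424 ± 0.472 and 0.115 ± 0.133 (1.49, adjusted p = 0.148). Kcna2 had a log2 fold change of 1.05 (adjusted p = 0.153), and Kcnq5 is given above. Kcnj10, the inward rectifier of satellite glia, averaged 0.168 ± 0.25 in cholinergic cells and 0.0397 ± 0.0382 in noradrenergic cells and was not called.

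**Figure D3:**
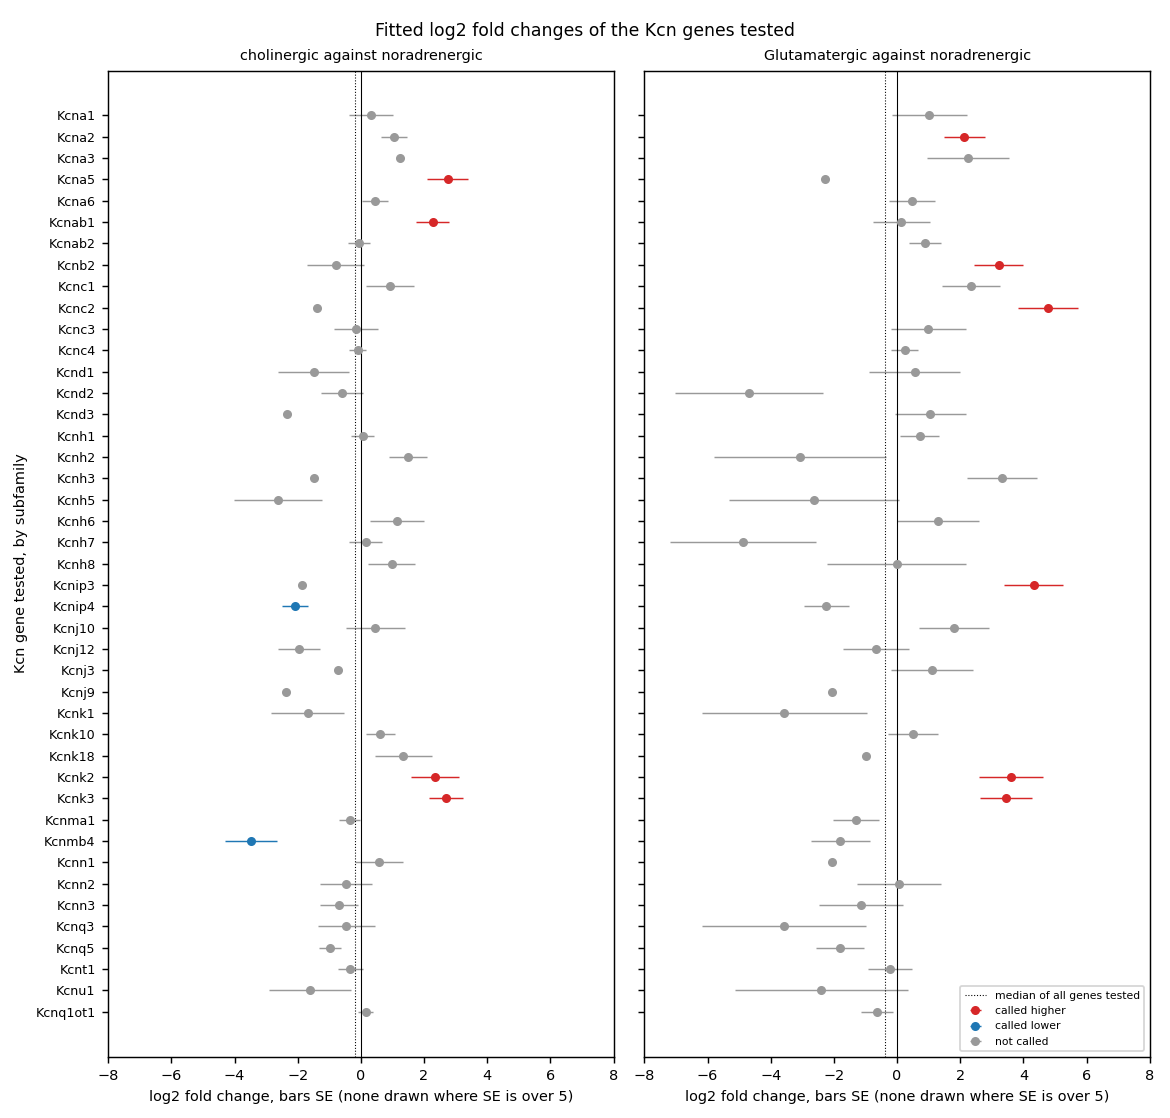
Fitted log2 fold changes of 43 tested Kcn genes, in cholinergic (left) and Glutamatergic (right) cells against the same noradrenergic cells; bars are the SE from the edgeR test and are left off where the SE is over 5, and the dotted line is the median of all genes tested. The points of genes with 0 counts in cholinergic or Glutamatergic cells, or in Ach1 or Ach2 alone, depend on the fit and give no bound. Kcnk2 and Kcnk3 are called higher in both panels, and no gene is called lower in Glutamatergic cells.

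Glutamatergic cells were few, with 2 from P29 male, 1 from P31 female and 1 from P33 female, and their comparison with noradrenergic cells shares the noradrenergic collections with the cholinergic one. Here 6 of 45 tested members rose, none fell and 39 did not pass. That is 13.3%, against 1.62% of all genes called higher and 2.63% called in either direction. The median log2 fold change was 0.06 over the tested members and -0.39 over all genes. It was 1.02 over the members when the 11 at 0 counts in Glutamatergic cells were placed at their limit. None of the 11 limits lay below no change, so this value shows no rise, and the median of all genes was not recomputed. At an unadjusted p under 0.05 in edgeR there were 12 of the 45 members, against 1379 of all 11555 genes.

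Voltage-gated subunits made up 3 of the 6. Kcnc2 (chromosome 10, 112271121 to 112467024, plus strand), whose fast channel lets neurons fire at high rates, was at 0.49 counts per 10000 in P29 male, 1.73 in P31 female and 0 in P33 female Glutamatergic cells, against 0 to 0.0641 in noradrenergic cells. The cells that were high are those low in noradrenergic markers, and 3 of 4 Glutamatergic against 19 of 193 noradrenergic cells held a count (3 of 4 against 3 of 191 after thinning). Its log2 fold change was 4.78 ± 0.95 (edgeR, adjusted p = 7.77e-05). Kcnc2 had 0 counts in 8 Ach1 and 8 Ach2 cells. Kcnb2 (chromosome 1, 15287254 to 15723750, plus strand), a delayed rectifier, was at 1.22, 1.04 and 0.196 in the 3 collections, in the same order, against 0 to 0.22. It was found in 4 of 4 Glutamatergic cells and 42 of 193 noradrenergic cells, with a log2 fold change of 3.22 ± 0.78 (edgeR, adjusted p = 0.00301). Kcna2 (chromosome 3, 107101146 to 107115005, plus strand), a low-threshold channel of axons, was at 1.22, 1.04 and 0.587 in Glutamatergic cells and between 0 and 0.398 in noradrenergic cells, so the groups did not overlap, a separation not counted over all genes. Its log2 fold change was 2.12 ± 0.65 (edgeR, adjusted p = 0.0419, and 0.0548 without the collection as a block).

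Kcnip3 (chromosome 2, 127456498 to 127522094, minus strand), the calcium-binding Kcnd partner also known as DREAM and calsenilin, was at 0.245, 1.73 and 0 counts per 10000 in Glutamatergic cells and 0 to 0.077 in noradrenergic cells. It was found in 2 of 4 Glutamatergic and 13 of 193 noradrenergic cells, and its log2 fold change was 4.32 ± 0.93 (edgeR, adjusted p = 0.000436), whereas DESeq2 gave an adjusted p of 0.543. The other Kcnip member with many counts, Kcnip4, had a log2 fold change of -2.24 here and was not called (adjusted p = 0.0698). Kcnd2 and Kcnq3 had 0 counts in the 4 Glutamatergic cells, which allows a share of up to 75% of such cells with a count.

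Both leak channels called in cholinergic cells were called here as well, against the same noradrenergic cells. Kcnk3 was at 0.979, 1.38 and 0 counts per 10000 in Glutamatergic cells (log2 fold change 3.43 ± 0.82, edgeR, adjusted p = 0.00279), and Kcnk2 at 0.49, 0.345 and 0.196, above the noradrenergic maximum of 0.077 in each collection (3.61 ± 1.02, adjusted p = 0.0224). These values rest on 8 counts of Kcnk3 and 4 of Kcnk2, and separation from the noradrenergic range was not counted over all genes. The summed Kcnk level was 1.36 ± 1.15 in cholinergic cells, 1.54 ± 0.826 in Glutamatergic cells and 0.329 ± 0.195 in noradrenergic cells.

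**Figure D4:**
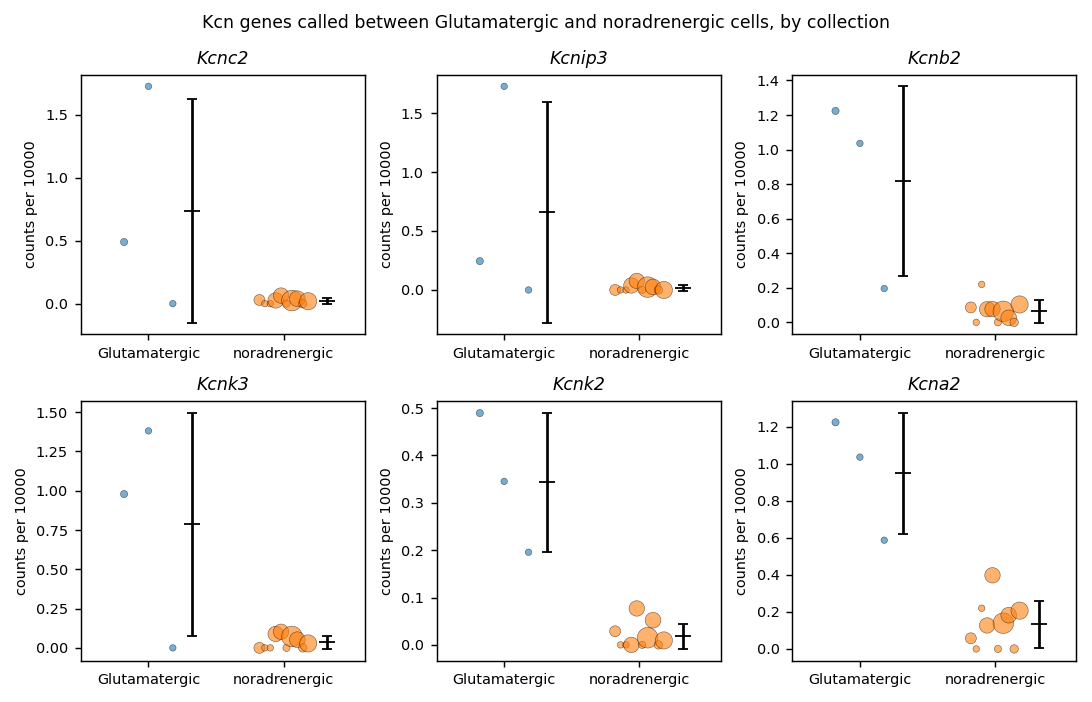
Levels of the 6 Kcn genes called between Glutamatergic and noradrenergic cells, in counts per 10000; each point is a collection with its area growing with the number of cells, and the bar is the mean with SD over 3 Glutamatergic and 10 noradrenergic collections. Kcna2 and Kcnk2 do not overlap between the groups, for Kcnk2 on few Glutamatergic counts, and such separation was not counted over all genes. Kcnc2, Kcnip3 and Kcnk3 have 1 Glutamatergic collection at 0.

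These calls rest on very few cells. Without P31 female Kcnc2 and Kcnip3 were too sparse to be tested and the other 4 were not called, with adjusted p of 0.128 for Kcnk2, 0.162 for Kcnb2, 0.365 for Kcna2 and 0.434 for Kcnk3. Without P29 male 2 members were called. With the glial list level in the model 1 call remained, Kcnip3 at 4.95 (adjusted p = 0.0028), while Kcnc2 was at 3.28 (adjusted p = 0.308), Kcnb2 at 2.61 (0.107), Kcnk3 at 2.66 (0.0945), Kcnk2 at 3.23 (0.0837) and Kcna2 at 1.65 (0.259).

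The windows upstream of 4 of these members are shown because they were called between transmitter groups and because their 250 bases overlap no annotated gene on the same strand. They were chosen after the values were seen. The sequences are from RefSeq on GRCm38.p6, on the strand of the gene and up to the base before the listed start. Capitals mark each CG. For every gene the first listed window was used, here of 4 for Kcnk2, 4 for Kcnc2, 3 for Kcnip3 and 1 for Kcna5. Further windows were not examined. Kcnk2 is from chr1:189402274-189402523 (minus strand), Kcna5 from chr6:126535556-126535805 (minus strand), Kcnc2 from chr10:112269767-112270016 (plus strand) and Kcnip3 from chr2:127522095-127522344 (minus strand).
Kcnk2: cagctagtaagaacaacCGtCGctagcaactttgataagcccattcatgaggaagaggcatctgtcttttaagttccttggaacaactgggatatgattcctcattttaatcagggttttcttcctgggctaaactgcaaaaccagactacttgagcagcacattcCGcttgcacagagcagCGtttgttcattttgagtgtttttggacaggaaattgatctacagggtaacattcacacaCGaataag
Kcna5: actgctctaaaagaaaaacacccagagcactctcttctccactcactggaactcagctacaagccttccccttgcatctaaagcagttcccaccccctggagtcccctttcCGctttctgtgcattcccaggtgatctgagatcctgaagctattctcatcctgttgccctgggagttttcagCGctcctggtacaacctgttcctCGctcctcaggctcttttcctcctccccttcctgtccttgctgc
Kcnc2: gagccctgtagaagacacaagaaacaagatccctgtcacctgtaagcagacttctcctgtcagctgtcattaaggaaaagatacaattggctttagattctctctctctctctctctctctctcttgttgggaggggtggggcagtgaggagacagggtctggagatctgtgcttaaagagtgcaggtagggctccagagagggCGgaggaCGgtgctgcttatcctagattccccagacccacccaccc
Kcnip3: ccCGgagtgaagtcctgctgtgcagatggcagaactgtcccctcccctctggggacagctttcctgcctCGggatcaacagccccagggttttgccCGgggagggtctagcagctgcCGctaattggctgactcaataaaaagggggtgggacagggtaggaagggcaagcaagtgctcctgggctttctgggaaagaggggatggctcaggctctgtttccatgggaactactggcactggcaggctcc
These windows held 5, 3, 2 and 4 CG, in the order shown, where the median of the 57 members with a RefSeq window was 8 and that of all 27025 windows was 6. GC content was 42.4% in the Kcnk2 window, 53.2% in that of Kcna5, 52.4% in that of Kcnc2 and 60% in that of Kcnip3. Members ranged from 0 to 43 CG, and Kcnmb4 had the 43. The letters GGGCGG, searched on both strands, were found in 29 of 57 member windows (50.9%) and in 32.9% of all windows, and of the 4 shown the Kcnc2 window holds them. TATAAA was found in 2 member windows (3.51%) against 13% of all windows. TGACGTCA was in 0 of 57 against 1.62%. A match or its lack describes these letters in this window and nothing more.

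Ach1 and Ach2, the cholinergic identities, were compared with each other on 8 cells each. Of 45 tested members 1 was called (2.22%, against 0.138% of all genes). Kcnip4 was at 0.246, 0.833, 0.178, 0, 0.295, 0.908 and 5.89 counts per 10000 in the 7 Ach1 collections and at 0, 0.202, 0 and 0 in the 4 Ach2 collections. The P38 male Ach1 cell at 5.89 held 20 of the 30 Ach1 counts, and 2 of 8 Ach2 cells held a count. The log2 fold change was 3.52 ± 0.83 (edgeR, adjusted p = 0.0213), and 1.56 without the P38 male collection (adjusted p = 0.852). Without the collection as a block the adjusted p was 0.465. Kcnk3 was found in 2 of 8 Ach1 cells, 1 each of P30 female and P30 male, and in 6 of 8 Ach2 cells. Its mean was 0.563 ± 1.09 counts per 10000 in Ach1 and 0.61 ± 0.281 in Ach2, where each of the 4 collections held a count, and it was not called.

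The noradrenergic identities were each set against the other 4. Noradrenergic1 had 2 of 45 members called higher (4.44%, against 1.39% of all genes called in either direction). Kcnab1 was at 0.359, 0, 1.55, 0.265 and 0.462 counts per 10000 in Noradrenergic1 cells of P29 male, P30 female, P30 male, P31 female and P38 male, with a mean of 0.527 ± 0.596 against 0.0742 ± 0.139 in the other noradrenergic cells. It was found in 6 of 10 Noradrenergic1 cells and 24 of 183 others, and rose with a log2 fold change of 2.83 ± 0.67 (edgeR, adjusted p = 0.0036), which was not called without the P30 male (0.0785) or the P38 male (0.0613) collection. Kcnip3 was called on 4 counts of 1 P30 female cell, with 0 in the other 4 Noradrenergic1 collections (3.61 ± 1.01, adjusted p = 0.0297, and 0.171 without the collection as a block) and so rests on that cell. Kcnt1 lay lower, at 0.133 ± 0.125 in Noradrenergic1, without passing (log2 fold change -2.08, adjusted p = 0.0502). It was called lower under some other settings, among them libraries of at least 2 cells and the glial list level in the model.

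Noradrenergic2 and Noradrenergic3 are the most numerous identities, and Kcnmb4 was called higher in each. Levels pool the other noradrenergic cells, while the fit weights their identities equally, so fold changes need not match the ratio of the levels. In Noradrenergic3 Kcnmb4 lay between 0.221 and 1.12 counts per 10000 over 7 collections, with a mean of 0.769 ± 0.291 against 0.559 ± 0.424 in the other noradrenergic cells. It was higher than in the other noradrenergic cells of the same collection in 7 of 7 collections (log2 fold change 1.05 ± 0.25, edgeR, adjusted p = 0.00301). In Noradrenergic2 it averaged 0.745 ± 0.495 against 0.626 ± 0.253, with a log2 fold change of 0.96 ± 0.28 (edgeR, adjusted p = 0.0429). That call was lost without P29 male (0.271), P31 female (0.332), P33 female (0.0944) or P38 male (0.215), and with RLE scaling (0.114). The lowest mean Kcnmb4 level among the noradrenergic identities was in Noradrenergic4, 0.185 ± 0.0435 over 5 collections from 0.131 to 0.236, but this did not pass (-1.53, adjusted p = 0.0669). Without the collection as a block, and in libraries of at least 2 cells, Kcnmb4 was called lower in Noradrenergic4. Kcnip4 was at 1.01 ± 0.736 in Noradrenergic2 against 1.07 ± 0.308 in the other noradrenergic cells and did not pass (log2 fold change -0.79, adjusted p = 0.0839), but was called lower with RLE scaling, where Kcnmb4 was not. Noradrenergic2 had 1 of 45 members called higher (2.22%, against 1.64% of all genes called in either direction).

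Noradrenergic3 had 3 of 45 members called higher (6.67%, against 1.74% of all genes called in either direction), each with counts in all 7 of its collections. Kcnab2 lay between 0.353 and 1.21 counts per 10000 with a mean of 0.812 ± 0.307 in Noradrenergic3, against 0.468 ± 0.297 in the other noradrenergic cells, and was higher in 6 of 7 collections. The log2 fold change was 1.00 ± 0.23 (edgeR, adjusted p = 0.00273). Kcnh3 (chromosome 15, 99224861 to 99242817, plus strand), an elk-type channel, was rarer, with 33 counts in 25 of 103 Noradrenergic3 cells against 3 counts in 3 of 90 others. Its level was 0.0758 ± 0.0326 in Noradrenergic3, above the other noradrenergic cells in 7 of 7 collections, and it had 0 counts in 18 Noradrenergic4, 23 Noradrenergic5 and 16 cholinergic cells. In Glutamatergic cells it had 3 counts, all in 1 of the 4 cells, and was not called against noradrenergic cells (log2 fold change 3.33, adjusted p = 0.0811), though it was with RLE scaling and in libraries of at least 2 cells. The log2 fold change was 2.71 ± 0.65 (edgeR, adjusted p = 0.00355), and 2.73 without P31 female (adjusted p = 0.113). The Kcnh3 gene overlaps Mcrs1 on the other strand, and Kcnab2 overlaps Nphp4.

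Noradrenergic4 had 3 of 45 members called higher (6.67%, against 1.25% of all genes called in either direction), 2 of them leak channels. Kcnt1 (chromosome 2, 25863734 to 25918273, plus strand), the sodium-activated channel Slack, was at 0.471, 1.59, 1.49, 0.261 and 0.722 counts per 10000 in its 5 collections, with 16 of 18 cells holding a count. It averaged 0.906 ± 0.6 against 0.379 ± 0.142 in the other noradrenergic cells and was higher in 5 of 5 collections (log2 fold change 1.47 ± 0.33, edgeR, adjusted p = 0.00123, and 0.114 without P31 female). Kcnk18 (chromosome 19, 59219214 to 59237374, plus strand), the leak channel TRESK that is known from sensory neurons, was at 0.236, 0.441, 0.121, 0 and 0.167 in Noradrenergic4. It had 12 counts in 8 of 18 Noradrenergic4 cells, against 9 counts in 8 of 175 other noradrenergic cells, all 9 from P31 female. The log2 fold change was 3.49 ± 0.79 (edgeR, adjusted p = 0.0018). After thinning, 2 of 18 against 2 of 173 cells held a count. Kcnk10 (chromosome 12, 98429437 to 98578310, minus strand), the leak channel TREK-2, was at 0.471, 1.15, 0.362, 0.392 and 0.5, above the range of 0 to 0.275 in the other noradrenergic cells, a separation not counted over all genes. It had a log2 fold change of 1.52 ± 0.41 (edgeR, adjusted p = 0.0216), which was not called without P30 female (1.04, adjusted p = 0.518) or P38 male (1.43, adjusted p = 0.155). Cholinergic cells held Kcnk10 at 0.256 ± 0.268 and Kcnk18 at 0.165 ± 0.256. The glial list median was 10.0 in Noradrenergic4 cells. With the glial list level in the model Kcnt1 and Kcnk18 were called, and Kcnk10 had a log2 fold change of 1.40 (adjusted p = 0.0714).

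**Figure D5:**
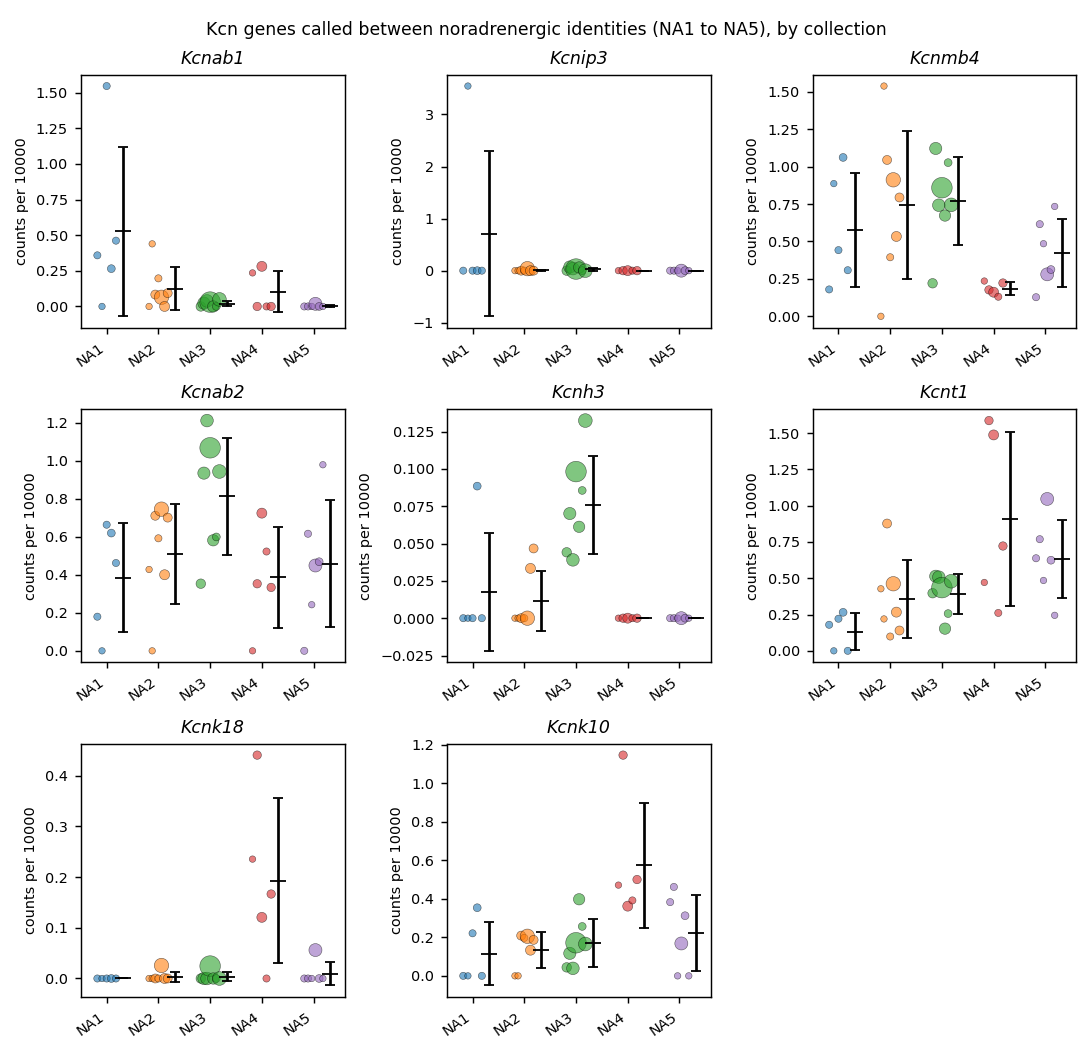
Levels of the 8 Kcn genes called between noradrenergic identities, in counts per 10000, with Noradrenergic1 to Noradrenergic5 shown as NA1 to NA5; each point is a collection with its area growing with the number of cells, and the bar is the mean with SD over collections. Kcnh3 is highest in NA3, Kcnk18 and Kcnk10 in NA4, and a single NA1 cell carries Kcnip3.

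Noradrenergic5 had 0 of 45 members called by edgeR, where 1.41% of all genes were called. By DESeq2 0 members and 99 of 11555 genes were called. At an unadjusted p under 0.05 in edgeR there were 7 members and 951 of 11555 genes. Kcnip4 came closest, at 1.49 ± 0.365 counts per 10000 against 1.13 ± 0.589 in the other noradrenergic cells (log2 fold change 0.83, adjusted p = 0.068). Kcnh6, an erg channel, was found in 9 of 23 Noradrenergic5 cells against 11 of 170 others, with a log2 fold change of 2.54 (adjusted p = 0.0798). Median log2 fold changes of the members against those of all genes were -0.40 and -0.15 in Noradrenergic1, -0.02 and 0.09 in Noradrenergic2, 0.08 and 0.16 in Noradrenergic3, 0.31 and 0.03 in Noradrenergic4 and -0.04 and -0.03 in Noradrenergic5. With members at 0 counts in the named identity placed at their limit, the members' median was 0.18 in Noradrenergic1 (7 members at 0) and 0.09 in Noradrenergic5 (4 members at 0). None of the 7 limits and 1 of the 4 lay below no change, so these values show no rise. The medians of all genes were not recomputed in this way.

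Sex was compared in Noradrenergic3 cells, with P29 and P38 males against P11, P30, P31, P33 and P34 females. No age among them held both sexes, so sex could not be told apart from age. None of 25 tested members was called by edgeR or DESeq2, while edgeR called 0.0296% of 10141 genes. At an unadjusted p under 0.05 in edgeR there were 0 members and 290 of all genes. With few collections and few calls over all genes, the lack of a call does not show equal levels. The members' log2 fold changes lay between -0.88 and 0.71.

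Further genes of potassium channel function were read from lists. Auxiliary subunits not named Kcn had 3 of 7 tested genes higher and 1 lower in cholinergic against noradrenergic cells, where 2.17% of all genes were called higher and 2.40% lower. Cntn2, an adhesion protein that gathers Kcna channels beside the node of Ranvier, rose by 2.86 on the log2 scale (edgeR, adjusted p = 4.55e-14), and Lgi1, a secreted partner of Kcna complexes, by 2.65 (adjusted p = 9.26e-13). Dpp6, which speeds Kcnd channels, rose by 0.89 (adjusted p = 0.0211). Lingo1, a partner of the large-conductance channel, fell with a log2 fold change of -3.06 (adjusted p = 0.000106). The median log2 fold change over the 7 was 0.89, against -0.20 over all genes. In Glutamatergic cells Cntn2 rose (2.49, adjusted p = 0.0187) and 6 of 7 did not pass, and in Noradrenergic2 Cntn2 rose (1.79, adjusted p = 0.00156).

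Genes that control the M current included 15 tested of 19 listed. In cholinergic cells 3 fell and 12 did not pass, with a median log2 fold change of -0.29, against -0.20 over all genes, of which 2.40% were called lower. They were Agtr1a, the angiotensin receptor (-4.01, edgeR, adjusted p = 1.04e-09), and the protein kinases Prkcb (-2.26, adjusted p = 0.000108) and Prkca (-1.26, adjusted p = 0.0273). Agtr1a had 0 counts in Glutamatergic cells and was called lower there (adjusted p = 0.000555). Among noradrenergic identities Agtr1a was lower in Noradrenergic1 (-3.53, adjusted p = 1.1e-07) and higher in Noradrenergic5 (1.38, adjusted p = 0.000142). Plcb4, a phospholipase downstream of such receptors, was higher in Noradrenergic2 (1.14, adjusted p = 1.91e-05) and Noradrenergic3 (1.13, adjusted p = 2.34e-06) and lower in Noradrenergic5 (-1.23, adjusted p = 0.00844). Prkcb was higher in Noradrenergic3 (1.02, adjusted p = 0.00075), Bdkrb2, the bradykinin receptor, in Noradrenergic2 (3.25, adjusted p = 0.00459), and Plcb1 in Noradrenergic1 (3.15, adjusted p = 0.0403). Of the 6 sodium-potassium pump genes, 0 were called in cholinergic cells by edgeR. Atp1b1 (-1.90, adjusted p = 0.000106) fell in Glutamatergic cells.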

How the data were processed

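Polyadenylated RNA of single ganglion cells was captured on microfluidic chips and sequenced, per the labels' protocols. The deposited table holds a whole-number count per gene and cell, with the genome build mm10 per the submitters' processing notes. The aligner, counter, annotation and any collapsing of molecules are not given in the sources used here. Every one of the 298 columns was matched to a sample by its title.

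Counts were summed by identity and collection into 44 libraries, 16 of them single cells. Testing took 11555 genes that reached 20 counts and were present in 3 libraries or more. With TMM scaling, edgeR 4.0.16 (robust quasi-likelihood, two-sided F test) modelled identity and collection. Contrasts weighted identities equally, p-values were adjusted by Benjamini-Hochberg over all genes per comparison, and 0.05 was the threshold for a call. The SE is the log2 fold change divided by the square root of F and restates the test. Sex was tested in Noradrenergic3 libraries of at least 3 cells. The scripts were tested on simulated data.

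The collection was kept as a replicate block after a check of this pairing in libraries of at least 5 cells. Deviations from identity means correlated at 0.257 to 0.373 in 4 same-collection pairs and at -0.0703 on average in 20 other pairs. Levels are counts per 10000 pooled within a collection, with mean ± SD over collections, so a collection of 1 cell weighs as much as one of many. They cover counting error and cell differences together, and a limit beside 0 counts covers counting error alone. A limit on the share of cells is 3 divided by the number of cells. That rule is rough and too wide for so few cells, and it takes the cells as independent.

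Named genes were those called, the most counted of each subfamily, and channels known from sympathetic or sensory neurons or glia. Kcnj5, Kcnj6 and Kcnk9 are not analysed here, and a few further genes that the rule takes in are not reported. Members and lists were chosen with earlier results of these data known. All 79 members were matched by symbol to GENCODE M21 (GRCm38), and 57 to a RefSeq upstream window. The alternatives tried were other scaling, filters, DESeq2 1.42.0, no block, libraries of at least 2 cells, thinned cells, the chip as block, leaving out collections and a glial covariate. Chips were read from the titles.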

Additional observations from a re-analysis of the deposited data

Results flagged for a closer look

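A rule set to flag about 1 group in 20 was applied to 36 groups of collections, all of genes already called. The groups overlap and many hold sparse counts, so that rate is no measure of chance here. In 12 groups 1 value stood far from the others. Most of these values are from collections of 1 or 2 cells, where a few counts make a high level per 10000. Levels are in counts per 10000, with the nearest other collection after each.

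Among cholinergic cells, Kcnk3 was at 2.872 in the P30 male collection (1 cell, 4 counts), with the nearest at 0.8375. Kcnip4 was at 5.886 in the P38 male Ach1 cell (20 counts, nearest 0.908) and at 0.2015 in P29 male Ach2 cells (2 counts, nearest 0).

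Among noradrenergic cells, Kcnab1 reached 1.547 in P30 male (2 cells, 7 counts, nearest 0.4394). The P20 female collection, a single cell, stood high in Kcnip4 (2.636 from 12 counts, nearest 1.325), in Kcna5 (0.2197 from 1 count, nearest 0.06342) and in Kcnb2 (0.2197 from 1 count, nearest 0.1034). Kcnip3 was at 0.07696 in P30 female (6 counts, nearest 0.03805), and 4 of those counts came from the Noradrenergic1 cell at 3.546, where the other Noradrenergic1 collections were at 0. In noradrenergic cells other than Noradrenergic1, Kcnab1 was at 0.4394 in P20 female (2 counts, nearest 0.05638). Kcnk10 was at 1.146 in P30 female Noradrenergic4 cells (13 counts in 4 cells, nearest 0.5). In noradrenergic cells other than Noradrenergic4, Kcnk18 was at 0.02944 in P31 female (9 counts in 78 cells, nearest 0).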

How the results depend on the processing

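Of 22 calls of single members, 3 held under every alternative in which they could be tested (Kcnmb4 and Kcnab2 in Noradrenergic3, Kcnk18 in Noradrenergic4), 19 were lost under at least 1, and none of 385 alternative values reversed. Kcnk18 had no adjusted p with filterByExpr, DESeq2 or thinned cells, nor without P30 female or P31 female. Those settings could therefore not undo its call, and P31 female held all 9 of its counts in the other noradrenergic cells.
The number of members called for cholinergic against noradrenergic cells was 6. It was 7 with RLE size factors or no replicate block, and 4 with filterByExpr or the glial covariate. With no filter 3 were higher and 2 lower. It was 2 in libraries of at least 2 cells, 2 in thinned cells and 3 to 7 leaving out collections in turn. For Glutamatergic cells it was 6, and 7 with RLE size factors, 4 with the chip as block, 3 with filterByExpr and 3 with DESeq2. It was 1 in libraries of at least 2 cells, 1 in thinned cells, 1 with the glial covariate and 0 to 7 leaving out collections. For Ach1 against Ach2 it was 1, and 0 with filterByExpr, DESeq2, no replicate block, libraries of at least 2 cells or thinned cells, and 0 to 1 leaving out collections. For Noradrenergic1 it was 2, and 1 with filterByExpr, DESeq2, no replicate block, libraries of at least 2 cells, thinned cells or the chip as block, and 1 to 3 leaving out collections. For Noradrenergic2 it was 1, and 0 with filterByExpr, no filter, DESeq2 or thinned cells, 2 in libraries of at least 2 cells or with the chip as block, and 0 to 2 leaving out collections. For Noradrenergic3 it was 3, and 1 with filterByExpr, 2 with DESeq2 and 2 to 3 leaving out collections. For Noradrenergic4 it was 3, and 1 with filterByExpr or thinned cells, and 2 with DESeq2, the chip as block or the glial covariate. It was 4 with no replicate block or in libraries of at least 2 cells, and 1 to 4 leaving out collections. For Noradrenergic5 it was 0, and 1 with RLE size factors, no replicate block, libraries of at least 2 cells or the chip as block, and 0 to 2 leaving out collections. For sex it was 0 with RLE size factors, filterByExpr, no filter, DESeq2, thinned cells and leaving out collections, and the other settings were not run. In the comparisons between identities, settings not listed left the count unchanged. An equal count need not be the same member. In Glutamatergic cells the call in libraries of at least 2 cells was Kcnh3, none of the 6, and DESeq2 called Kcnb2, Kcna2 and Kcnc1. In Noradrenergic2 Kcnip4 was called lower with RLE size factors, the glial covariate, libraries of at least 2 cells and the chip as block, and in the first 2 of these Kcnmb4 was not called. In Noradrenergic1 Kcnt1 was the call (lower) in libraries of at least 2 cells, and it was also called lower with no filter and with the glial covariate. In Noradrenergic4 DESeq2 called Kcnh1 lower, and Kcnmb4 was called lower with no replicate block and in libraries of at least 2 cells. Fewer members or cells are tested under filterByExpr, thinning and libraries of at least 2 cells, and otherwise the cause was not tested.
RLE size factors moved the all-gene median log2 fold change by over 0.1. It was -0.198 under TMM and -0.0446 under RLE for cholinergic cells, and -0.386 and 0.0222 for Glutamatergic cells. Higher and lower calls over all genes were 251 and 277 under TMM against 338 and 219 under RLE for cholinergic cells, and 187 and 117 against 291 and 46 for Glutamatergic cells. The called members kept their direction under RLE. The 34 members too sparse to test have levels but no call in either direction.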

Other observations

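The 85 Unclassified cells held the potassium channel genes at levels near those of the named cells, with a median summed level of 12.9 counts per 10000. Their Kcnc4 averaged 1.27 ± 0.582 (SD, n = 7 collections). Kcna1, a low-threshold axonal channel, had 33 of its 86 counts in 13 of these 85 cells, at 0.22 ± 0.176 against 0.0349 ± 0.0391 in noradrenergic cells. Their glial list median was 25.9, against 6.17 in noradrenergic cells, and their noradrenergic markers summed to a median of 107. Their median total was 22977 counts, and 17 of the 20 cells too shallow for thinning were among them. These values come from cells the labels put in no identity and were not tested.

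The single P30 male Ach1 cell stood apart in several genes besides Kcnk3. The 19 genes that control the M current, which include the calmodulins, summed to 21.5 counts per 10000 there, where noradrenergic collections lay between 101 and 137. The 6 sodium-potassium pump genes summed to 74.0, against 15.6 to 27.2 in noradrenergic collections.

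Several sparse members were seen in Glutamatergic or cholinergic cells on few counts. Kcns2 had 4 counts in 2 of 4 Glutamatergic cells and 10 counts in 7 of 193 noradrenergic cells. Kcnip1 had 3 counts in 2 of 4 Glutamatergic cells and 2 counts in 1 of 193 noradrenergic cells, and Kcna4 had 3 counts in 3 of 4 and 9 counts in 8 of 193. Kcnv1 had 4 counts in 3 of 16 cholinergic cells and 1 count in 1 of 193 noradrenergic cells. These genes had too few counts for the test or were chosen after their values were seen.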
